A study of Mus musculus with 16 samples.

Results

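The response of control mouse epidermis to ultraviolet B (UVB) was measured by RNA sequencing as the difference between 4 exposed and 4 unexposed libraries, all labelled K5Cre. These 8 libraries were chosen by their labels alone, out of the 16 libraries of the study, and every gene in the count table was considered. Both groups were SKH-1 mice of 8 to 12 weeks, an immunocompetent hairless stock whose skin is directly exposed to the lamp. Both carry K5Cre, which is Cre recombinase under the keratin 5 promoter, active in the basal keratinocytes of the epidermis, so the controls are not free of Cre. The exposed mice were sampled 6 h after 100 mJ/cm2 of UVB, and the other group was labelled as untreated. Epidermis was separated by heat shock in both groups, so every library passed through a heating step. The other 8 libraries came from epidermis with a keratinocyte deletion of C/EBPβ, 4 unexposed and 4 at the same dose and time, and serve here only for comparison. The sources used here do not state sex, the number of animals, or whether the controls also carry a floxed allele.

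The epidermis is a layered epithelium in which basal keratinocytes divide, move outward through the spinous and granular layers and end as a cornified barrier. UVB is absorbed by DNA and joins neighbouring pyrimidines into photoproducts, which stall RNA polymerase and activate the p53 pathway. It also activates growth factor receptors and stress-activated kinases at the cell surface, and keratinocytes answer with cytokines, prostaglandins and a change in the proteins of their cytoskeleton and envelope.

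The unexposed libraries held 36.0 to 52.7 M counts and the exposed ones 32.98 to 49.7 M. Counts of Xist and of Y-linked genes placed 2 female and 2 male libraries in each group. The common biological coefficient of variation, the relative spread between replicates beyond counting error, was 0.340 in unexposed controls and 0.654 in exposed controls. Transcripts encoded by the mitochondrial genome took 5.62 to 8.57% of counts unexposed and 5.24 to 9.65% after UVB (exact two-sided permutation test, p = 0.257, where 4 against 4 cannot go below 0.0286). At equal depth 18454 to 19929 genes were detected unexposed and 16987 to 19318 after UVB (exact permutation p = 0.0857). Over the 5 such library measures compared, the smallest Benjamini-Hochberg adjusted p of these exact permutation tests was 0.429. The labelled tissue was checked by its keratins. The suprabasal keratin Krt10 stood at 10508 to 16482 CPM unexposed and 9848 to 29233 CPM after UVB, where CPM is the count per 1e6 counts of the library, scaled by edgeR's TMM factors. The basal keratin Krt14 stood at 657 to 1261 and 1039 to 2872 CPM. Neither difference passed the test (Krt10 log2 fold change 0.46, SE 0.27, edgeR adjusted p = 0.200; Krt14 0.92, SE 0.36, adjusted p = 0.0607), although Krt14 passed without unexposed library 1 (1.11, adjusted p = 0.0430), exposed library 3 (1.06, 0.0436) or exposed library 4 (1.09, 0.0338), and Krt10 without exposed library 4 (0.66, 0.0464).

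The response was broad and went in both directions. Of 17741 genes, 3146 rose (17.7%) and 3197 fell (18.0%), 6343 in all (35.8%), at an edgeR adjusted p below 0.05. Among them 1412 rose and 1523 fell by at least 2-fold, and 229 rose and 164 fell by at least 16-fold. The 4 exposed libraries lay wholly above the 4 unexposed ones for 2899 genes (16.3%) and wholly below for 3105 (17.5%). Genes that rose took 19.0 to 21.6% of the counts of tested genes unexposed and 30.6 to 39.4% after UVB, while genes that fell went from 21.7 to 23.9% to 10.9 to 12.2%. The median log2 fold change over all tested genes was -0.02. Each group held libraries of both sexes, yet nothing in the labels ties a library to an animal of its own. Every p-value therefore reflects the spread between samples, which may be partly technical. In bulk tissue, fewer cells of a type and less RNA per cell cannot be told apart.

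The smallest p-values in the rising direction belonged to genes of quite different roles. Plet1, a surface glycoprotein gene of progenitor epithelia, read 24.3, 19.99, 20.7 and 22.1 CPM unexposed and 591, 454, 442 and 353 CPM after UVB. Its log2 fold change was 4.40 (SE 0.21, edgeR adjusted p = 4.40e-11), and the lowest exposed library was far above the highest unexposed one. Osmr, the receptor subunit for oncostatin M, read 24.9, 25.5, 28.9 and 26.2 CPM unexposed and 194, 176, 189 and 139 CPM after UVB, a log2 fold change of 2.73 (SE 0.15, adjusted p = 3.52e-10). Slc5a8, a sodium-coupled monocarboxylate carrier, rose by 2.65, Nudt4, a diphosphoinositol polyphosphate hydrolase, by 2.69, and Arid5a, an RNA-binding protein that stabilises cytokine messages, by 3.55. Polr2a, the largest subunit of RNA polymerase II, rose from 61.0 to 65.7 CPM unexposed to 286 to 395 CPM after UVB.

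In the falling direction the smallest p belonged to Tnxb, the matrix glycoprotein tenascin X. It read 24.9, 30.6, 29.0 and 32.2 CPM unexposed and 2.83, 3.25, 2.31 and 2.71 CPM after UVB, with a log2 fold change of -3.39 (SE 0.20, edgeR adjusted p = 4.79e-10). Klf9, a glucocorticoid-induced and clock-controlled repressor of keratinocyte proliferation, read 27.2, 31.0, 40.2 and 31.5 CPM unexposed and 6.93, 6.80, 6.88 and 4.00 CPM after UVB (-2.40, SE 0.18). The receptor gene Neo1 fell by 1.75, the organic anion exporter gene Abcc5 by 2.20, the sphingosine kinase gene Sphk1 by 1.64 and the carbonic anhydrase gene Car6 by 1.79 on the log2 scale. Dst, which encodes the hemidesmosome plaque protein BPAG1 and spans a very long locus, fell by 1.52 from 156 to 191 CPM to 48.8 to 64.3 CPM. In each of these genes the groups did not overlap.

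**Figure D1:**
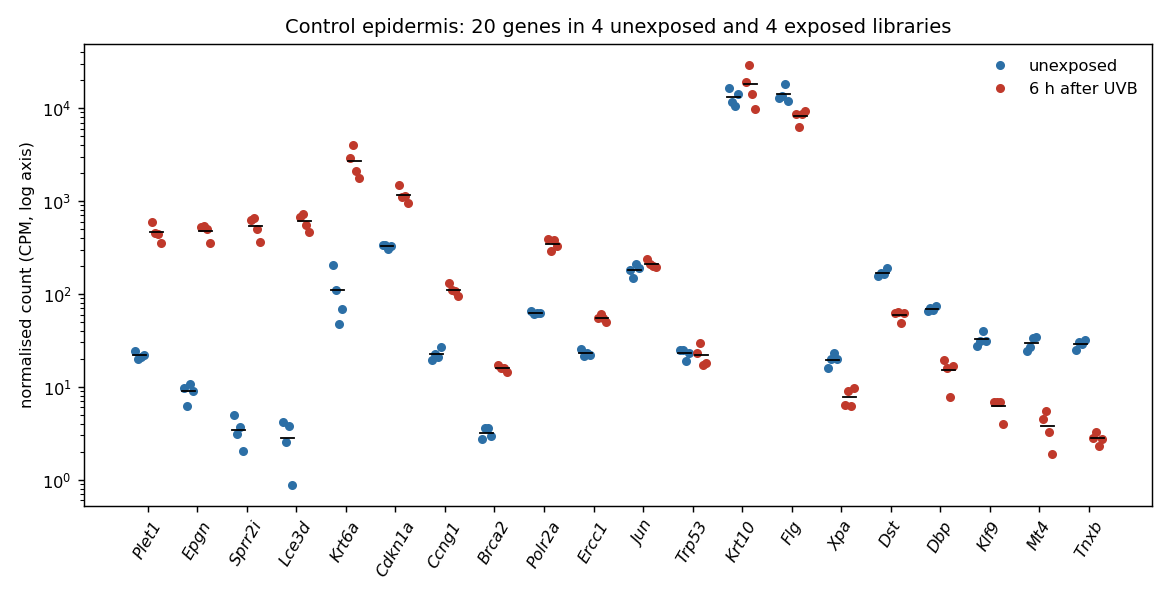
Normalised counts (CPM, log axis) of 20 genes in each of the 4 unexposed (blue) and 4 exposed (red) control libraries, with black lines at the group means. Plet1, Epgn, Sprr2i and Lce3d have exposed libraries far above every unexposed one, Tnxb, Mt4 and Klf9 far below, and Trp53 overlaps between the groups (19.1 to 25.0 against 17.2 to 29.6 CPM).

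Many p53 targets rose while Trp53 did not pass. Of 41 tested targets 21 rose and 6 fell (median log2 fold change 0.58), and of 12 core genes 2 rose and 5 fell. Trp53 itself read 24.9, 25.0, 19.1 and 23.4 CPM unexposed and 23.1, 29.6, 17.2 and 17.9 CPM after UVB, with a log2 difference of -0.07 (SE 0.20, edgeR adjusted p = 0.815). Cdkn1a, the p21 inhibitor of cyclin-dependent kinases, read 339, 338, 304 and 327 CPM unexposed and 1484, 1107, 1135 and 962 CPM after UVB. Its log2 fold change was 1.84 (SE 0.18, adjusted p = 1.78e-07). Mdm2, the ubiquitin ligase that degrades p53, rose by 1.49 (SE 0.15), and Ppm1d, the phosphatase that switches off damage kinases, by 0.71 (SE 0.16). In contrast Mdm4, the other p53 inhibitor, fell by 0.73 (SE 0.12), the damage kinase gene Atr by 0.91 (SE 0.16) and the p53 relative Trp73 by 1.25 (SE 0.23). The largest rise among the targets was in Pmaip1, which encodes the death protein NOXA, at 3.85 to 7.30 CPM unexposed and 68.8 to 117 CPM after UVB (log2 fold change 4.02, SE 0.39). Ccng1, the cyclin G1 gene, rose by 2.30, the p53-induced nuclease gene Aen by 2.27 and Sfn, the 14-3-3 protein of the G2 checkpoint, by 1.82.

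Bax, a pore-forming protein of the mitochondrial membrane, rose by 0.81 (SE 0.18), and of 29 BCL2 family and apoptosis genes 7 rose and 1 fell (4 rose without unexposed library 2, and 4 fell without exposed library 2). Raised and lowered shares of that list were 24.1% and 3.45%, against 17.7% and 18.0% of all genes. Bcl2, which restrains cell death, stood at 25.9 to 37.5 CPM unexposed and 10.05 to 19.0 CPM after UVB (log2 fold change -0.99, SE 0.21). The survival genes Mcl1 and Cflar rose by 0.63 and 0.57. Among 18 inflammasome and pyroptosis genes 2 rose and 3 fell (1 rose without unexposed library 4). These shares, 11.1% and 16.7%, were below those of all genes (17.7% and 18.0%). Gsdma, a pore-forming gasdermin of skin, rose by 1.27 (SE 0.13), while Pycard, the adaptor that gathers inflammasomes, fell by 1.12 (SE 0.14), Casp1 by 0.82 (SE 0.16) and the DNA sensor gene Aim2 by 1.63 (SE 0.38).

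Nucleotide excision repair cuts UVB photoproducts out of DNA. Of its 29 tested genes 8 rose and 7 fell (4 fell without unexposed library 3 or 4, or exposed library 1, and 4 on the 8 control libraries alone). The genes that rose included incision and unwinding factors. Ercc1, part of the nuclease that cuts on the 5′ side of the damage, read 25.3, 21.4, 23.2 and 21.9 CPM unexposed and 55.0, 60.7, 55.6 and 49.7 CPM after UVB (log2 fold change 1.27, SE 0.13, edgeR adjusted p = 2.31e-07). Ercc5, the nuclease on the 3′ side, rose by 0.87 and Ercc2, a helicase of TFIIH, by 0.69. On the falling side Xpa, which verifies the damage, read 15.9, 19.9, 23.2 and 19.7 CPM unexposed and 6.40, 8.99, 6.27 and 9.70 CPM after UVB (-1.32, SE 0.20, adjusted p = 3.38e-05), and its groups did not overlap. Xpc, which first finds the lesion, fell by 1.00 (SE 0.31), a call lost without unexposed library 4 (adjusted p = 0.0542), and the single-strand binding subunit gene Rpa1 by 0.97 (SE 0.21). Their recognition partners Rad23b and Ddb1 rose by 0.54 (SE 0.13) and 0.52 (SE 0.14). Among 17 translesion and interstrand repair genes 4 rose and 3 fell (23.5% and 17.6%). These shares were 27.6% and 24.1% for the excision repair genes and 17.7% and 18.0% for all genes. Brca2, a recombination mediator, rose from 2.74 to 3.58 CPM to 14.4 to 17.2 CPM (2.31, SE 0.18), Pcna, the sliding clamp, by 1.24 (SE 0.21), and the Fanconi gene Fancc fell by 1.47 (SE 0.22). Ercc1, Ercc2, Xpa and Fancc share exonic bases with a more abundant gene on the other strand, as do Irf7, Gnl3 and Supt6 among genes described later. Strand use in the counting is unstated, which leaves their levels uncertain.

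Signalling from the EGF receptor to the AP-1 factors is a known route of the UVB response, and its ligands moved both ways. Of 18 tested genes of the EGF receptor family 7 rose and 3 fell. Epgn, the ligand epigen, read 9.80, 6.19, 10.6 and 9.10 CPM unexposed and 527, 540, 500 and 356 CPM after UVB, a log2 fold change of 5.75 (SE 0.36, edgeR adjusted p = 1.34e-08). Hbegf rose by 2.92 (SE 0.25), Areg by 2.81 (SE 0.29) and Nrg1 by 2.40 (SE 0.22). Other ligand genes fell: Btc, betacellulin, from 49.97 to 123 CPM to 10.7 to 39.6 CPM (-1.97, SE 0.35) and Tgfa by 0.45 (SE 0.14), a call lost without unexposed library 4 (edgeR adjusted p = 0.0605). The receptor gene Egfr passed narrowly (0.38, SE 0.13, adjusted p = 0.0293), and not without unexposed library 1, 3 or 4 or exposed library 1, 3 or 4 (adjusted p from 0.0587 to 0.116). The feedback inhibitor gene Errfi1 rose by 1.504 (SE 0.15). Of 11 genes for dual-specificity phosphatases, which switch off MAP kinases, 8 rose and 0 fell. Dusp6 went from 5.79 to 8.70 CPM to 54.8 to 73.8 CPM (3.17, SE 0.23), Dusp10 rose by 2.79 (SE 0.34) and Dusp7 by 1.77 (SE 0.21).

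Rises outnumbered falls by 23 to 0 among the 28 immediate early and AP-1 genes tested (median 0.95). Fosl1, which encodes the AP-1 subunit FRA1, read 2.79, 4.26, 4.25 and 1.88 CPM unexposed and 188, 156, 158 and 146 CPM after UVB (log2 fold change 5.63, SE 0.33, edgeR adjusted p = 2.50e-09). The stress factor gene Atf3 rose by 3.25 (SE 0.40), Mafk by 1.98 (SE 0.18), Junb by 1.34 (SE 0.15) and Fos by 1.63 (SE 0.48). Zfp36, whose protein destroys cytokine messages, rose by 1.95 (SE 0.18). The classical first-wave genes did not all pass at 6 h. Jun read 180, 147, 210 and 188 CPM unexposed and 238, 210, 202 and 193 CPM after UVB (0.22, SE 0.12, adjusted p = 0.177). Egr1 stood at 31.0 to 53.9 CPM and 34.5 to 61.9 CPM (0.29, SE 0.18, adjusted p = 0.240), and both pairs of groups overlapped.

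In the C/EBP family, bZIP factors of keratinocyte differentiation, 3 of 5 tested genes rose and 1 fell. Cebpa went from 225 to 276 CPM to 340 to 523 CPM (log2 fold change 0.70, SE 0.15, edgeR adjusted p = 0.00125), Cebpd rose by 1.14 (SE 0.27) and Cebpz by 1.16 (SE 0.17). Cebpg fell by 0.34 (SE 0.11, adjusted p = 0.0248), a call lost without unexposed library 1 (adjusted p = 0.0693) or 2 (0.0629), or exposed library 1 (0.0766) or 3 (0.0860). Cebpb, the gene deleted in the knockouts, had a log2 difference of 0.81 that did not pass (SE 0.34, adjusted p = 0.0805), although its groups did not overlap. It passed on the 8 control libraries alone (0.79, adjusted p = 0.000134). Spidr, more abundant than Cebpd, overlaps it on the other strand.

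Cytokine transcripts rose for several alarm signals of keratinocytes. Of 12 IL-1 and IL-36 family genes 6 rose and 3 fell, and of 20 other cytokine genes 5 rose and 2 fell (1 fell without unexposed library 4). Raised and lowered shares were 50% and 25% in the first list and 25% and 10% in the second, against 17.7% and 18.0% of all genes. Il1b read 1.58, 0.565, 1.03 and 0.928 CPM unexposed and 16.5, 17.5, 10.05 and 8.48 CPM after UVB (log2 fold change 3.68, SE 0.47, edgeR adjusted p = 6.44e-06). The nuclear alarmin gene Il33 read 10.97, 10.1, 8.52 and 7.86 CPM unexposed and 82.1, 110, 51.3 and 26.4 CPM after UVB (2.85, SE 0.50). Il1f9, the IL-36γ gene, rose by 1.26 (SE 0.17) and the receptor antagonist gene Il1rn by 1.06 (SE 0.14). The shared receptor chain Il1rap fell by 1.40 (SE 0.20). Inhba, which encodes activin A, a wound-induced TGF-β relative, went from 0.018 to 0.188 CPM to 3.64 to 10.5 CPM (6.20, SE 0.63). Tslp, a cytokine that acts on dendritic cells, rose by 2.19 (SE 0.39) and Tnf by 1.64 (SE 0.43). Il24 had counts in 1 unexposed library alone and stood at 1.24 to 1.66 CPM after UVB (5.59, SE 0.85). Without that library, unexposed library 4, the unexposed group held no Il24 counts and the fitted value was 8.99, whose size then rests on the model.

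Of 22 chemokine genes 4 rose and 4 fell (2 fell by limma voom or on the 8 control libraries alone), shares close to those of all genes (17.7% and 18.0%). Ccl20, which draws CCR6-bearing lymphocytes and dendritic cells, went from 5.70 to 6.79 CPM to 26.3 to 34.3 CPM (log2 fold change 2.24, SE 0.25), and Cxcl16 rose by 1.07 (SE 0.14). Of 18 NF-kB subunit and feedback genes 8 rose and 2 fell. Rela, which encodes the p65 subunit, read 41.7, 31.2, 33.7 and 31.2 CPM unexposed and 214, 185, 198 and 167 CPM after UVB (2.47, SE 0.18, edgeR adjusted p = 4.25e-09). Bcl3 rose by 2.58 (SE 0.20) and the feedback inhibitor gene Tnfaip3 by 1.53 (SE 0.24), while the deubiquitinase gene Cyld fell by 0.94 (SE 0.16). Of 15 prostaglandin genes 6 rose and 4 fell (2 fell without unexposed library 4). Ptgs2, the inducible cyclooxygenase, went from 0.188 to 0.921 CPM to 9.68 to 19.9 CPM (4.74, SE 0.62) and the prostaglandin D synthase gene Hpgds rose by 1.29 (SE 0.19). Pla2g4a, the phospholipase that releases arachidonic acid, fell by 1.13 (SE 0.16).

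More genes of the type I interferon response fell than rose. Of 70 tested members 3 rose (4.29%) and 22 fell (31.4%), against 17.7% and 18.0% of all genes. Their median was -0.51, and between 15 and 30 fell when single libraries were left out. Rnf213, an interferon-induced ubiquitin ligase, read 18.9, 28.1, 27.4 and 16.6 CPM unexposed and 4.30, 8.33, 8.89 and 5.04 CPM after UVB (log2 fold change -1.77, SE 0.26, edgeR adjusted p = 2.36e-05). Tap2, a peptide transporter for MHC class I, fell by 0.74 (SE 0.12) and the kinase gene Jak1 by 0.81 (SE 0.11). Cmpk2 stood at 0.373 to 3.31 CPM unexposed and had no counts in any exposed library, at least 17.4-fold lower when each exposed library is given 3 counts. The antiviral gene Rsad2 read 3.77, 10.3, 15.4 and 8.61 CPM unexposed and 1.497, 2.06, 0 and 0 CPM after UVB (-3.34, SE 0.99, adjusted p = 0.0191), and did not pass on the 8 control libraries alone (adjusted p = 0.0722). Without exposed library 2 its log2 fold change was -4.22. The widely used markers Isg15 (-0.39, SE 0.54, adjusted p = 0.626) and Irf7 (-0.57, SE 0.36, adjusted p = 0.258) did not pass, and their groups overlapped. The 3 that rose were the exonuclease gene Isg20 (2.94, SE 0.27), the MHC class I light chain gene B2m (0.71, SE 0.15) and Slfn2 (1.86). Socs3, a feedback inhibitor of cytokine receptors, rose by 2.14 (SE 0.22).

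Stress and wound genes had the highest share of raised members among the keratinocyte lists. Of 34 tested members 29 rose and 0 fell, with a median of 4.15, and their summed level went from 1726 to 3571 CPM to 17029 to 33613 CPM. This list was drawn up with earlier results of these data known. The barrier-alarm keratin Krt6a read 207, 111, 47.6 and 69.6 CPM unexposed and 2945, 4014, 2089 and 1788 CPM after UVB (log2 fold change 4.64, SE 0.57, edgeR adjusted p = 3.19e-05). Its near-identical neighbour Krt6b rose by 4.18 (4.90 without unexposed library 1), and reads may be shared between them. Krt16, their partner, stood at 670 CPM in unexposed library 1 and 175 to 255 CPM in the other 3, against 2702 to 6507 CPM after UVB. It rose by 3.77 (SE 0.52), or 4.39 without that library. Krt17 rose by 2.12 (SE 0.23). Serpinb2, the plasminogen activator inhibitor 2 gene, went from 27.0 to 30.6 CPM to 184 to 368 CPM (3.11, SE 0.43).

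Of 19 basal keratinocyte genes 3 rose and 9 fell. Krt5 went from 439 to 771 CPM to 266 to 487 CPM (log2 fold change -0.80, SE 0.22), Krt15, a keratin of quiescent basal and bulge cells, fell by 1.97 (SE 0.27), and Lama3, a laminin chain of the hemidesmosome anchor, by 1.30 (SE 0.18). Itgb1, the integrin of migrating keratinocytes, rose by 1.48 (SE 0.19). Spinous genes were mixed, with 5 of 17 raised and 3 lowered (3 raised without unexposed library 2, 3 or 4, or exposed library 1 or 2, and 1 lowered without unexposed library 3 or exposed library 3). Their raised and lowered shares were 29.4% and 17.6%, against 17.7% and 18.0% of all genes. Krt1 did not pass (0.43, SE 0.31, edgeR adjusted p = 0.309), and exposed library 2 read 19202 CPM against 5465 to 11505 CPM in the other 3. Mt4, the metallothionein of differentiating keratinocytes, read 24.3, 27.0, 33.4 and 34.0 CPM unexposed and 4.49, 5.49, 3.29 and 1.88 CPM after UVB (-2.96, SE 0.28).

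Junction and barrier lipid genes rose more often than they fell. Of 28 desmosome and tight junction genes 13 rose and 4 fell. The connexin 26 gene Gjb2 read 80.1, 71.3, 57.8 and 39.8 CPM unexposed and 775, 1092, 702 and 417 CPM after UVB (log2 fold change 3.58, SE 0.37, edgeR adjusted p = 2.85e-06). Connexin 30, encoded by Gjb6, rose by 3.17 (SE 0.29), and the connexin gene Gjb5 fell by 1.54 (SE 0.15), so the family did not move as one. The desmosomal cadherin genes Dsc2 and Dsg1b rose by 2.78 (SE 0.43) and 2.17 (SE 0.19). Of 22 barrier lipid genes 15 rose and 0 fell (median 0.73). Alox12b, the lipoxygenase that prepares ceramides for the cornified envelope, went from 164 to 189 CPM to 497 to 723 CPM (1.79, SE 0.19), the lipase cofactor gene Abhd5 rose by 1.21 (SE 0.14) and the glucosylceramide synthase gene Ugcg by 1.01 (SE 0.14). Of 27 sterol and fatty acid synthesis genes 5 rose and 5 fell (3 fell without exposed library 1, 8 without exposed library 2), close to the shares of all genes (17.7% and 18.0%). Dhcr7, the last step of cholesterol synthesis, fell by 0.94 (SE 0.12).

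Cornified envelope genes sit side by side in the epidermal differentiation complex on chromosome 3, and neighbouring families went in opposite directions. Between positions 90511034 and 93564643 of GRCm38, 84 genes were tested, of which 33 rose and 18 fell. All 6 tested Lce3 genes rose (median 6.48), as did 10 of 12 Sprr2 genes and all 4 other Sprr genes, while 11 of 14 Lce1 genes fell and 0 rose (median -0.98). The summed level of the Lce3 genes went from 17.6 to 43.3 CPM to 1709 to 2771 CPM, and that of the Lce1 genes from 14595 to 22478 CPM to 7938 to 10506 CPM. Lce3d read 4.17, 2.52, 3.76 and 0.874 CPM unexposed and 679, 725, 551 and 465 CPM after UVB (log2 fold change 7.75, SE 0.70, edgeR adjusted p = 2.86e-06). Sprr2i read 4.93, 3.06, 3.67 and 2.04 CPM unexposed and 631, 660, 496 and 365 CPM after UVB (7.30, SE 0.42). Lce1m, on the far side of the Lce3 group from the other Lce1 genes, read 1541, 1738, 3108 and 2637 CPM unexposed and 947, 562, 738 and 784 CPM after UVB (-1.57, SE 0.24). Reads of such near-identical paralogs may be shared, so single members are less certain than their families.

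Other members of the complex were as divided. Flg, the filaggrin precursor of the granular layer, went from 12098 to 18148 CPM to 6302 to 9323 CPM (log2 fold change -0.78, SE 0.24, edgeR adjusted p = 0.0147), a call lost without unexposed library 3 (adjusted p = 0.0568). Rptn, repetin, a fused S100 protein like filaggrin, rose by 3.99 (SE 0.59), or 3.36 without exposed library 2. Loricrin, encoded by Lor, and involucrin, encoded by Ivl, did not pass (-0.37, SE 0.19, and -0.18, SE 0.36), although Lor passed without unexposed library 2 (-0.53, adjusted p = 0.0392). Of 12 S100a genes in the interval 7 rose and 0 fell, led by S100a9 at 33.8 to 108 CPM unexposed and 358 to 593 CPM after UVB (2.96, SE 0.43). Over the 42 tested granular and cornified genes of all chromosomes, 12 rose and 12 fell. Cnfn, cornifelin, rose by 2.08 (SE 0.14), the cross-linking enzyme gene Tgm1 by 1.59 (SE 0.16) and the desquamation protease gene Klk11 by 1.31 (SE 0.14).

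**Figure D2:**
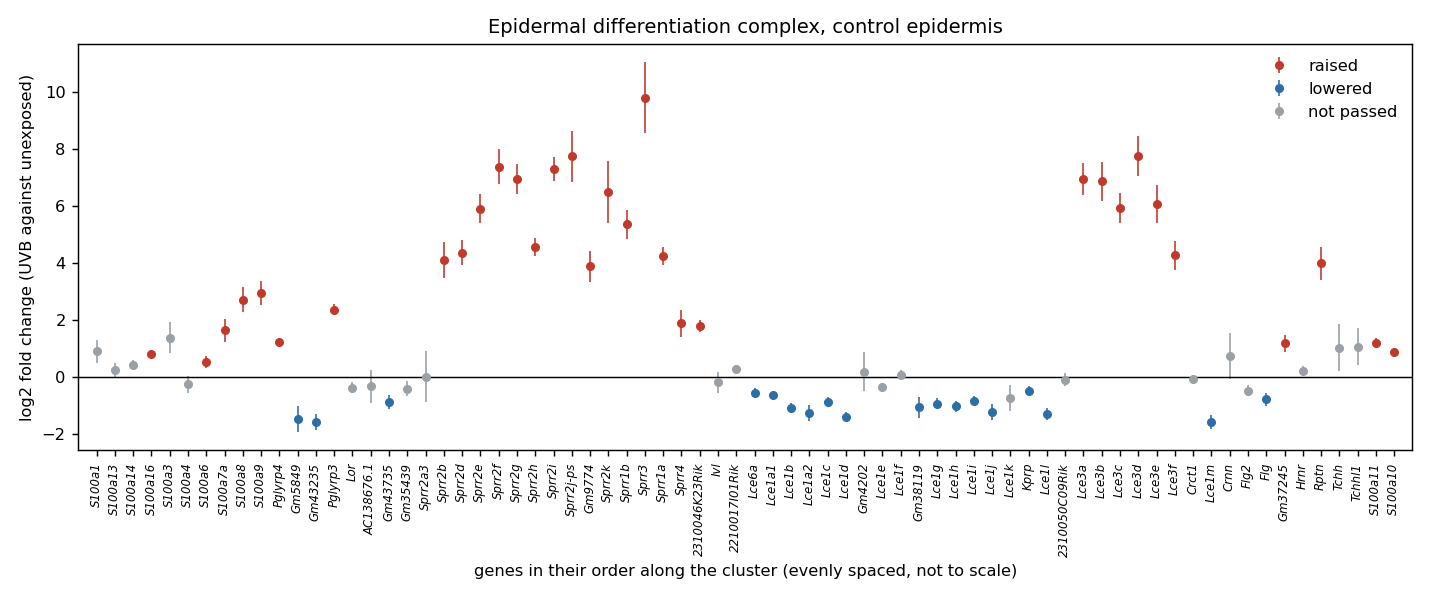
Log2 fold change (UVB against unexposed, points, with SE bars) of the genes of the epidermal differentiation complex with a group mean of at least 1 CPM, in their order along the chromosome and evenly spaced. The Sprr and Lce3 genes plotted lie above 0, Sprr2a3 only at 0.01 and not passed, with Lce3d at 7.75 and Sprr3 at a fitted value that is no measured fold because it had no unexposed counts, and the Lce1 block lies mostly below, down to -1.57 at Lce1m.

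The start-site sequences of 3 strongly raised genes and 1 lowered Lce1 gene are printed to show where the motifs counted next can lie. No rule chose these genes, and their windows do not stand for the raised set. Among windows of genes raised at least 4-fold, 12.5% held the motif TGANTCA and 20.8% the TATA box. The printed sequences are RefSeq windows on GRCm38.p6, from 250 bases before the annotated start to 50 bases after it, written 5′ to 3′ on the strand of the gene. Capitals mark TGANTCA, called the AP-1 motif here, and the TATA box TATAAA, searched on both strands, and both motifs lie apart in these windows. N stands for any base, so the motif is looser than 1 fixed word. It is TGATTCA in Plet1, TGAATCA in Sprr1b and TGAGTCA in Sprr2i. In Plet1 (chr9:50494275-50494574, + strand) the AP-1 motif begins 144 bases before the start and the TATA box 30 bases before. In Sprr1b (chr3:92438730-92439029, - strand) they begin 111 and 30 bases before, and in Sprr2i (chr3:92407741-92408040, + strand) 193 and 29 bases before. The window of Lce1d (chr3:92687161-92687460, - strand) holds a TATA box 30 bases before the start and no TGANTCA.
Plet1: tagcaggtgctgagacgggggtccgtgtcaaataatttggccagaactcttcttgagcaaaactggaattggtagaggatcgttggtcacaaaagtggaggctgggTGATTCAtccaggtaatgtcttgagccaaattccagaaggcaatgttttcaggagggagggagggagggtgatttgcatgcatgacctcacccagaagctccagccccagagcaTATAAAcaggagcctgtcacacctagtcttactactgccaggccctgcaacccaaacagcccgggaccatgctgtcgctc
Sprr1b: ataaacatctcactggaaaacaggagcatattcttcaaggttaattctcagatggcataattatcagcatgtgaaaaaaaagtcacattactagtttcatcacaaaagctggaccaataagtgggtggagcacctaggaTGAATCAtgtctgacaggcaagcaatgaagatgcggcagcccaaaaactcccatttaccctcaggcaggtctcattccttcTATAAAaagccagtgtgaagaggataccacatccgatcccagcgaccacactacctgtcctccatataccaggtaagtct
Sprr2i: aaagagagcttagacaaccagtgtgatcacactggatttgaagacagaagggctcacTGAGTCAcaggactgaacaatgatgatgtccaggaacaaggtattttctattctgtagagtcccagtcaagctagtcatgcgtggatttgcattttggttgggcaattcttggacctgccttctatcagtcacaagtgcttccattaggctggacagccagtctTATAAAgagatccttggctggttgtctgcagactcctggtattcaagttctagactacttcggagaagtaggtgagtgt
Lce1d: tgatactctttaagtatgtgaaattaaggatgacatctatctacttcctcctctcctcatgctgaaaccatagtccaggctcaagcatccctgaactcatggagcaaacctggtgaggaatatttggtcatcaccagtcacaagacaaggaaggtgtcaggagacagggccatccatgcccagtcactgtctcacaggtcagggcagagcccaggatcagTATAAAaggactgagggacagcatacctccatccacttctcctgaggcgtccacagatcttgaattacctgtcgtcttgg

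Such windows were available for 12379 tested genes, 15761 windows in all because some genes have several starts. TGANTCA stood in 5.96% of all windows and in 6.23% of those of genes that rose. Among genes that rose at least 4-fold it stood in 51 of 408 windows (12.5%), and among those that rose at least 16-fold in 24 of 146 (16.4%). The TATA box stood in 8.75% of all windows, 20.8% of those raised at least 4-fold and 24.0% of those raised at least 16-fold. With the Sprr, Lce, Krt and Serpinb families left out, whose members resemble each other, TGANTCA stood in 10.4% and 11.6% of the windows raised at least 4-fold and 16-fold, against 5.82% of all. The cyclic AMP element TGACGTCA stood in 2.70% of all windows and 3.43% of those raised at least 4-fold, and the E-box CACGTG in 9.09% and 8.58%. In windows raised at least 16-fold these stood in 4.11% and 4.79%. Among windows of genes lowered at least 4-fold, with the same families left out, the TATA box stood in 12.3% against 8.32% of all, and TGANTCA in 6.27%. A match is a run of letters in the window, and binding was not measured.

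Transcripts of the gene expression machinery itself rose broadly. Of 24 ribosome biogenesis genes 23 rose and 0 fell (median 1.21), the highest share raised of all lists. Nolc1, a nucleolar phosphoprotein, read 34.9, 35.0, 34.2 and 34.9 CPM unexposed and 147, 115, 121 and 112 CPM after UVB (log2 fold change 1.83, SE 0.12, edgeR adjusted p = 1.29e-09). The nucleolar GTPase gene Gnl3 rose by 1.61 (SE 0.15), the helicase gene Ddx21 by 1.65 (SE 0.15) and the pre-ribosome subunit gene Utp4 by 1.94 (SE 0.18). Of 29 genes of RNA polymerase II elongation and termination 14 rose and 1 fell (0 fell without unexposed library 1, 3 or 4, or exposed library 1, 3 or 4). Beside Polr2a (2.47, SE 0.15), Hexim1, the inhibitor of the elongation kinase P-TEFb, went from 23.0 to 30.3 CPM to 109 to 182 CPM (2.43, SE 0.22), and the elongation factor genes Ell2 and Supt6 rose by 1.11 (SE 0.13) and 0.98 (SE 0.12). Ccnl1, a cyclin of splicing speckles, rose by 2.24 (SE 0.14).

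Protein folding genes rose on several branches. Of 23 unfolded protein and integrated stress response genes 10 rose and 2 fell. Without exposed library 2, 6 rose and 6 fell; without exposed library 3, 1 fell; and 4 fell by DESeq2, limma voom, upper-quartile factors or without the filter. Dnajb9, a chaperone of the endoplasmic reticulum, read 13.6, 15.7, 14.9 and 17.4 CPM unexposed and 119, 149, 107 and 107 CPM after UVB (log2 fold change 2.97, SE 0.20, edgeR adjusted p = 1.32e-09). Hspa5, the master chaperone BiP, rose by 1.62 (SE 0.16) and Atf4 by 1.19 (SE 0.15). Of 17 heat shock genes 7 rose and 1 fell. Hsp90aa1 went from 71.1 to 85.8 CPM to 469 to 911 CPM (3.06, SE 0.22), Hspb1 rose by 1.11 (SE 0.16), and Hsf2, a heat shock factor gene, fell by 1.72 (SE 0.26). All these libraries had been heated during isolation. NRF2 targets, which detoxify oxidants, were mixed at 3 raised and 7 lowered of 24. Srxn1, sulfiredoxin, rose by 2.69 (SE 0.24), while the heme oxygenase gene Hmox1 read 167, 180, 270 and 255 CPM unexposed and 89.8, 83.1, 71.5 and 66.5 CPM after UVB (-1.49, SE 0.16), and Txnrd1 fell by 1.05 (SE 0.18).

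**Figure D3:**
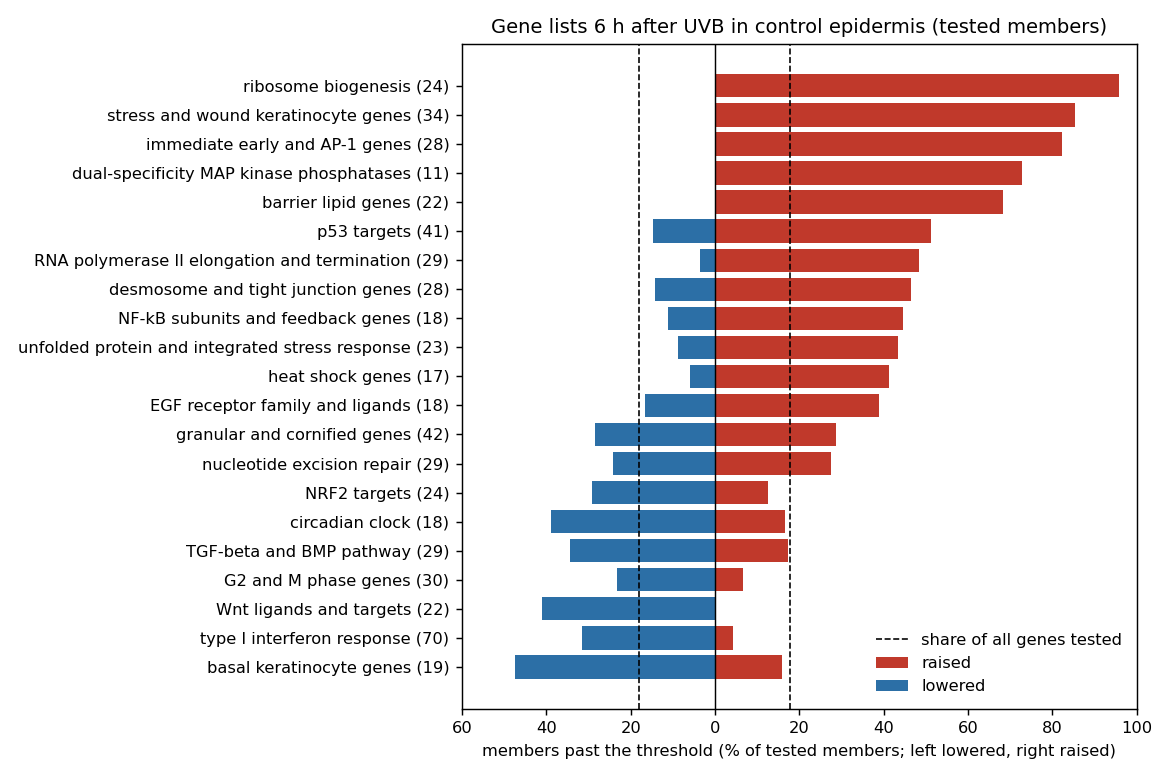
Share of tested members past the threshold in 21 gene lists (number tested in brackets), raised to the right in red and lowered to the left in blue, with dashed lines at the shares of all genes tested (17.7% raised, 18.0% lowered). Ribosome biogenesis genes reach furthest to the right (23 of 24) and basal keratinocyte genes furthest to the left (9 of 19).

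In the Wnt, Notch and TGF-β lists more genes fell than rose. Raised and lowered shares were 0% and 40.9% for Wnt, 7.14% and 28.6% for Notch, and 17.2% and 34.5% for TGF-β. Those of all genes were 17.7% and 18.0%. Among 22 Wnt ligand and target genes 9 fell and 0 rose (1 rose without unexposed library 3 or 4, or exposed library 4). Wnt7b read 92.8, 97.0, 104 and 97.4 CPM unexposed and 30.3, 32.2, 27.3 and 38.2 CPM after UVB (log2 fold change -1.61, SE 0.20, edgeR adjusted p = 3.10e-06), Wnt3 fell by 1.33 (SE 0.16) and Wnt4 by 0.83 (SE 0.13). In the Notch pathway, which commits keratinocytes to differentiate, 1 of 14 rose and 4 fell (2 rose without unexposed library 2, 0 without exposed library 2), among them Notch1 by 0.67 (SE 0.17). Of 29 TGF-β and BMP genes 5 rose and 10 fell (3 rose without unexposed library 1 or exposed library 1). The inhibitors Smad7 and Fst rose by 1.46 (SE 0.19) and 1.76 (SE 0.25), and the BMP target Id3 fell by 1.45 (SE 0.26). Among 14 YAP and TAZ targets 4 rose and 4 fell (28.6% each), with Ccn1, a matricellular protein gene, up by 3.08 (SE 0.42). Among 15 matrix protease genes 8 rose and 3 fell, led by Adamts1 (2.73, SE 0.27) and Mmp10, stromelysin 2 (3.56, SE 0.41), with Mmp28 down by 2.02 (SE 0.26).

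Several outputs of the circadian oscillator fell. Among its 18 tested genes 7 fell and 3 rose (1 rose without unexposed library 2, 3 or 4, or exposed library 3). Dbp, a bZIP factor driven directly by the clock, read 64.9, 71.0, 66.3 and 73.7 CPM unexposed and 19.5, 16.1, 7.73 and 16.6 CPM after UVB (log2 fold change -2.20, SE 0.24, edgeR adjusted p = 8.05e-07). Its relatives Tef and Hlf fell by 1.09 (SE 0.14) and 1.84 (SE 0.24). The hour of sampling is unstated, and its part in these values was not tested. Dbp overlaps the more abundant Sphk2 on the other strand.

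Cell cycle genes passed in both directions. Of 31 G1 and S phase genes 3 rose and 4 fell (8 fell without exposed library 2), and of 30 G2 and M phase genes 2 rose and 7 fell (4 fell without unexposed library 1 or 3, or exposed library 1, and 1 rose without unexposed library 3 or exposed library 3). Over all genes 35.8% were called in either direction. Ccnd1, cyclin D1, went from 23.0 to 32.0 CPM to 39.6 to 54.1 CPM (log2 fold change 0.74, SE 0.15), and Ccnd2 fell from 68.2 to 109 CPM to 34.7 to 44.5 CPM (-1.27, SE 0.16). The mitotic kinesin gene Kif23 fell by 1.08 (SE 0.30), and Cdc20, an activator of the anaphase complex, rose by 1.46 (SE 0.28), although it shares exonic bases with the far more abundant Elovl1.

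The share of genes that rose or fell varied with gene length, most among genes of middle and high abundance. Of 3257 genes spanning under 5 kb, 20.02% rose and 5.74% fell, with a median log2 fold change of 0.35. At 5 to 20 kb the shares were 25.2% and 10.97%, at 20 to 50 kb 18.5% and 19.9%, and at 50 to 100 kb 10.9% and 30.1%. Of 1453 genes of 100 to 200 kb, 4.89% rose and 37.6% fell (median -0.48), and of 1026 genes over 200 kb, 2.73% rose and 31.6% fell (median -0.47). When genes were split into 3 equal groups by mean CPM, 64.7% of the 292 genes over 200 kb in the most abundant group fell, and 43.1% of 267 in the middle group. In the least abundant group 4.28% of 467 fell, with a median of 0.03 that ranged from -0.64 to 0.46 with 1 library left out (0.33 under 5 kb). The medians for genes over 200 kb were -0.59, -1.01, -0.68 and -0.34 in the 4 exposed libraries, relative to the unexposed mean. In the unexposed libraries, each relative to the mean of the remaining unexposed ones, they were -0.29, 0.22, 0.05 and -0.18. The unexposed libraries also varied with length, and the highest exposed median lay only slightly below the lowest unexposed one in this bin. Their references differ, so the size of that gap is inexact. Knockout epidermis showed a like gradient, with 1.27% raised and 37.2% lowered over 200 kb.

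Among genes over 200 kb, Dst had the smallest p of those that fell. Others that fell were Antxr1, a collagen receptor (-1.74, SE 0.17), Tenm2, a cell adhesion protein (-1.55, SE 0.17), and Prkdc, the DNA-dependent protein kinase (-2.24, SE 0.29). Even so, 28 genes over 200 kb rose. Nrg1 had the smallest p among those with a gene name, and Socs6, a suppressor of cytokine signalling, read 19.9, 24.0, 23.8 and 24.7 CPM unexposed and 98.8, 123, 96.3 and 66.9 CPM after UVB (2.06, SE 0.19). Macf1, a spectraplakin of the cytoskeleton, rose by 0.59 (SE 0.13). Of 1533 single-exon genes 14.5% rose and 4.24% fell.

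**Figure D4:**
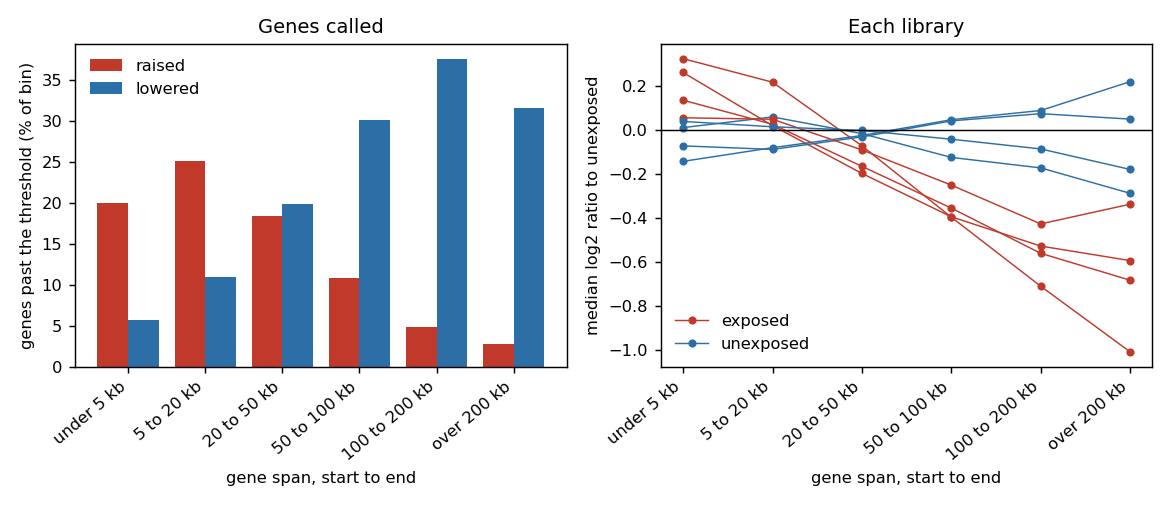
Left, the share of genes raised (red) and lowered (blue) in 6 bins of gene span. Right, the median log2 ratio of each library in the same bins. Exposed libraries (red) are set against the mean of the unexposed ones, and each unexposed library (blue) against the mean of the remaining unexposed ones. The exposed libraries slope from 0.06 to 0.33 under 5 kb to -0.34 to -1.01 over 200 kb.

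Markers of other cell types were followed for what else the isolated sheet could hold. Of 12 neutrophil markers 6 were tested, and 4 rose: S100a8, S100a9, Cxcr2 and Trem1. S100a8 and S100a9 are also stress genes of keratinocytes. The summed level of the list was 67.6 to 230 CPM unexposed and 676 to 1094 CPM after UVB, while the defining markers Elane, Retnlg and Mmp8 had no counts in any of the 8 libraries and Ly6g had counts in 1. Of 8 tested monocyte and macrophage markers 2 rose, among them Cd68, a lysosomal glycoprotein, from 4.29 to 5.68 CPM to 24.5 to 36.2 CPM (log2 fold change 2.53, SE 0.21). Their sum was 9.99 to 13.97 CPM unexposed and 32.7 to 49.1 CPM after UVB, and Itgam had no counts. Langerhans cell markers gave 2 raised and 1 lowered of 13 (0 lowered without unexposed library 2 or exposed library 4). These shares, 15.4% and 7.69%, were below those of all genes (17.7% and 18.0%). The summed level of the Langerhans list was 790 to 1040 CPM unexposed and 1370 to 1765 CPM after UVB, which did not overlap. The defining marker Cd207, langerin, read 21.1, 14.95, 12.3 and 7.32 CPM unexposed and 27.9, 23.4, 24.3 and 20.5 CPM after UVB (0.79, SE 0.27, edgeR adjusted p = 0.0256). That call was lost without unexposed library 3 (adjusted p = 0.0834) or 4 (0.0845), or exposed library 1 (0.0833), 2 (0.0640) or 3 (0.0573).

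T cell markers gave 0 raised and 2 lowered of 15 (4 lowered without exposed library 2 or by limma voom), namely Cd3g (log2 fold change -0.98, SE 0.27) and Ptprc (-1.20, SE 0.31), with sums of 115 to 145 CPM unexposed and 97.9 to 113 CPM after UVB. The share of T cell markers lowered, 13.3%, was below the 18.0% of all genes. Fibroblast markers gave 3 lowered of 10 (30%), led by Fap, a stromal protease, from 4.15 to 6.00 CPM to 0.278 to 0.961 CPM (-3.05, SE 0.40). Their sum was 105 to 145 CPM unexposed and 64.6 to 95.1 CPM after UVB. Melanocyte markers summed to 42.2 to 82.8 and 38.9 to 100 CPM, with 1 of 9 raised (0 without unexposed library 1, 2 or 4, or exposed library 2, and 3 without exposed library 4). Hair follicle genes summed to 1931 to 4326 CPM unexposed and 2834 to 8176 CPM after UVB, with 2 raised and 3 lowered of 31. Sebaceous gland genes summed to 251 to 625 and 178 to 1808 CPM, with 2 of 14 raised (0 to 6 with single libraries left out). Schwann cell markers summed to 97.5 to 135 and 33.5 to 76.4 CPM, with 1 of 6 lowered. The part of these cells in the results above was not tested.

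Some genes had counts in only 1 of the groups. Of genes with more than 12 counts in the other group, 73 had none in the unexposed libraries (63 raised) and 130 had none after UVB (95 lowered). Given 3 counts per empty library, 12 of the former and 1 of the latter, Cmpk2, still differed by at least 16-fold. All these genes were picked by their empty group, which fixed their direction in advance, so the numbers called are no separate result. Trpv1, the heat- and capsaicin-gated ion channel gene, read 0.658, 0.848, 0.849 and 0.400 CPM unexposed and had no counts after UVB, at least 7.93-fold lower on that floor. Trem1, an activating receptor of myeloid cells, had no counts in the 4 unexposed libraries and read 2.05, 2.49, 3.65 and 3.13 CPM after UVB, at least 40.2-fold higher when each unexposed library is given 3 counts. Sprr3, an envelope protein of mucosal epithelia, had none unexposed and 0.695 to 3.96 CPM after UVB, at least 35.3-fold higher. Pip5kl1 and Cmtm2b were at least 29.5-fold and 29.1-fold higher. Vgf, a neuropeptide precursor gene, had 1 unexposed count and 691 after UVB, a ratio of 860 with a 95% counting interval of 154 to 34014.

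The knockout epidermis served to ask how far this response depended on the genotype. Knockout libraries gave 3207 raised (18.1%) and 2503 lowered (14.1%) genes against their own unexposed libraries. Calls shared in direction numbered 4513, which is 71.1% of the control calls and 79.0% of the knockout calls. The targeted gene Cebpb read 0.177 to 0.875 CPM in unexposed and 0.609 to 3.03 CPM in exposed knockout libraries, against 155 to 186 and 253 to 320 CPM in controls. For 0 genes did the difference between the responses pass by edgeR (1043 had an unadjusted p below 0.05), while DESeq2 called 52, limma voom 0 and edgeR without the filter 2. The smallest p belonged to Osmr, with a log2 fold change of 2.73 in controls and 1.501 in knockouts (adjusted p of the difference 0.114). Cmpk2 gave -9.09 in controls, where the exposed group had no counts, and 0.77 in knockouts (adjusted p = 0.261). Among the 70 tested type I interferon response genes 5 rose and 2 fell in knockouts (median 0.05). In controls 3 rose and 22 fell (median -0.51), and 0 of these genes passed for the difference between the responses. A gene called in one genotype and not in the other is therefore not shown to differ between them.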

How the data were processed

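The members, lists and comparisons were chosen with earlier results of these data known, and families such as Lce, Sprr and Skint, the 4-fold and 16-fold sets and the genome interval after values were seen. The authors deposited raw counts, whole numbers per Ensembl gene, and per the submitters' processing notes used FastQC, STAR, HTSeq and DESeq2. Their versions, the genome build and the strand setting are unstated in these sources. Libraries were made with a directional kit, per the labels' protocols.

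Of 49585 genes, 49326 had a symbol in GENCODE M21 (GRCm38), which supplied spans and exons. edgeR 4.0.16 (R 4.3.3) with filterByExpr and TMM factors kept 17741 genes, and a robust quasi-likelihood fit with 1 mean per group used all 16 libraries. Two-sided tests were adjusted by Benjamini-Hochberg over all tested genes at 0.05. The SE is the log2 fold change divided by the square root of F. No set test was run: lists are counts and medians. Values per library are TMM-scaled CPM.

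Genes were named by rule: 28 tested genes of a fixed set, up to 15 per direction by fold (mean of at least 1 CPM, groups apart), 10 by p, 6 by CPM difference, 5 per list by p, and 6 for the difference between genotypes. Lor, Ivl, Rptn, Xpc, Rad23b, Ddb1, Btc, Tgfa, Egfr, Slfn2, Macf1, Socs6, Antxr1, Tenm2, Prkdc, Skint5 and Skint9 were named after their values were seen. A simulation changed 100 genes 2-fold and 100 genes 4-fold in exposed controls alone, and gave each gene the same spread in every group. In the real data 35.8% of genes were called and the coefficient of variation was 0.654 in exposed and 0.340 in unexposed controls. The rates of the simulation therefore do not carry over to the real data. On the simulated data edgeR recovered 48 of 100 genes changed 2-fold and 83 of 100 changed 4-fold among 17106 tested, and called 9 unchanged genes. There DESeq2 1.42.0 called 41 unchanged genes and limma voom (3.58.1) 5. Alternatives were other factors, no filter, those 2 tools, the 8 control libraries alone and each library left out. Even numbers made up 68.8% of the counts between 2 and 101, against 50% for evenly spread integers. Counting intervals assume single independent reads and allow for no error but that of counting.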

Additional observations from a re-analysis of the deposited data

Results flagged for a closer look

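A library stood apart from the other 3 of its group in 19 of 382 groups of 4 examined, with a gap past the 95% limit of Dixon's test. Chance alone gives about 1 in 20, which is about the share found, so any single entry below may be chance. Among the exposed libraries, library 4 was low for Klf9 (3.997 CPM, others 6.796 to 6.929) and Klk11 (635.2 CPM, others 780.6 to 808). Library 1 was low for Sphk1 (68.52 CPM) and high for Jak1 (94.18 CPM) and Fst (29.27 CPM, others 14.8 to 15.88). Library 2 was high for the repetin gene Rptn (3646 CPM, others 1157 to 1290) and the cytokine gene Il1f9 (1334 CPM, others 842.2 to 905.1). The ribosomal RNA-like transcript Gm42418 took 6.644% of counts in exposed library 4 and 1.368 to 1.657% in the other 3.

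Among the unexposed libraries, library 1 was high for the keratin genes Krt16 (669.7 CPM, others 174.9 to 254.6) and Krt1 (11060 CPM, others 6614 to 7229), and low for Il1rn (146.3 CPM). It also held the single unexposed count of Vgf (0.022 CPM). Library 2 was low for Mdm2 (76.1 CPM), Pcna (6.122 CPM) and Isg20 (2.849 CPM) and high for Gnl3 (41.77 CPM). Library 3 was high for Il1f9 (470.9 CPM) and low for Nolc1 (34.21 CPM), where the others read 34.9 to 35.01. Library 4 alone had counts of Il24 (0.091 CPM).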

How the results depend on the processing

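Across the alternatives run, raised genes numbered 2613 to 3553 and lowered genes 2786 to 3574, and with 1 library left out 2570 to 3192 and 2755 to 3448. Of 187 genes named, 174 kept their direction and side of the threshold in every alternative. The difference between genotypes gave 0 calls by edgeR, 52 by DESeq2, 2 without the filter and 0 to 2 with 1 library left out, and the cause was not tested. Directions reversed in 2 genes that did not pass. Trp53 ranged from -0.31 to 0.0284 and Krt1 from -0.0551 to 0.65 with 1 library left out. Xpc did not pass on the 8 control libraries alone (edgeR adjusted p = 0.0574), nor Rsad2 there or by limma voom, nor Cd207 without the filter, nor Egfr without the filter or with upper-quartile factors. Krt14 passed by voom, and Cebpb by DESeq2 and voom. The median over all genes was -0.06 with upper-quartile factors and -0.13 by voom. No paired analysis was possible because the labels give no replicate numbers shared between groups. Genes with a few counts are limited by depth.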

Other observations

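Of 11 tested Skint genes 10 fell and 0 rose (median log2 fold change -1.57, against -0.02 over all genes). They encode butyrophilin-like proteins of keratinocytes known for shaping epidermal γδ T cells. Skint5 read 491, 880, 1061 and 888 CPM unexposed and 296, 167, 345 and 298 CPM after UVB (-1.59, SE 0.31, edgeR adjusted p = 0.000702). Skint9 went from 222 to 330 CPM to 79.9 to 92.0 CPM (-1.74, SE 0.19), and in both genes the groups did not overlap. Of 15 T cell markers 2 fell, Cd3g among them, and 13 did not pass (median -0.07). Any relation to the Skint genes was not tested.

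Of 75 tested ribosomal protein genes 20 rose (26.7%) and 0 fell, with a median of only 0.21, and exposed library 4 had a median below the unexposed mean (-0.12, against 0.48, 0.41 and 0.11 in exposed libraries 1 to 3). Of 36 kinesin genes 4 rose and 13 fell (11.1% and 36.1%). Numbered Zfp genes, mostly zinc finger repressors, gave 40 raised and 51 lowered of 344. These shares, 11.6% and 14.8%, were below those of all genes (17.7% and 18.0%).

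Among the largest rises in CPM was the mitochondrial ribosomal RNA mt-Rnr1, at 1697, 2577, 2595 and 1530 CPM unexposed and 9434, 4305, 8545 and 7394 CPM after UVB (1.82, SE 0.43, edgeR adjusted p = 0.00404). Its groups did not overlap. Of the 13 protein-coding transcripts of the mitochondrial genome, 0 rose and 0 fell (median 0.38), and at most 2 rose when single libraries were left out.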
